A study of Mus musculus with 2 samples.

Results

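The genes described here are named for subunits and assembly factors of respiratory complex I, although Ndufa4 and Ndufa4l2 are no longer placed in it. They are the 48 protein-coding mouse genes whose RefSeq symbol begins with Nduf, of 21000 protein-coding genes with a known coding transcript. For each gene, a peak of NRF1 occupancy was sought whose summit, the base of highest signal, lay from 1000 bp before to 100 bp after an annotated transcription start. Such a peak is called a promoter peak. In a study of gene control by the glucocorticoid receptor and LSD1 in muscle, chromatin immunoprecipitation followed by sequencing (ChIP-seq) served to locate the transcription factor NRF1 on the DNA of this tissue. Both libraries of the series, replicates 1 and 2, came from skeletal muscle of wild-type mice with no treatment named, and both carry the NRF1 antibody in their labels, which give neither age nor number of animals. The study's reporting summary lists the library of replicate 2 as input DNA, which conflicts with its label. The values below come from 1 list of 3226 peaks, whose names carry the title of replicate 1, and none has a replicate error. The study itself reports fewer NRF1 binding sites than this list holds, so the list may not be the set it describes. The tissue was whole muscle, which contains nuclei of cells other than myofibers, and the list does not tell them apart.

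Complex I is the entry point of electrons from NADH into the mitochondrial respiratory chain. It is L-shaped, with a matrix arm that oxidises NADH and reduces ubiquinone and a membrane arm that pumps protons. Core subunits carry out the catalysis and have bacterial counterparts, accessory subunits surround them, and assembly factors help to build the complex without remaining in it. The core of the membrane arm is encoded by mitochondrial DNA, while the remaining subunits are encoded in the nucleus. NRF1, nuclear respiratory factor 1, is a nuclear transcription factor best known for binding promoters of genes of the respiratory chain, and it recognises a palindrome made of a pair of GCGC half-sites.

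Of the 48 genes, 17 had a promoter peak, a share of 35.4% (Wilson 95% interval 23.4 to 49.6%, which covers counting error only). Among all 21000 protein-coding genes, 2804 had one, or 13.4%. No Nduf gene had more than 1 promoter peak. The genes with a peak encoded parts of the matrix arm, parts of the membrane arm and 2 assembly factors, and the other 31 genes had none. Because the depth of the libraries is unknown from the list, a gene without a peak cannot be told from one occupied below the threshold of the peak caller.

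The sequences under the summits are given first, because 12 of the 17 peaks held a copy of the NRF1 palindrome GCGCATGCGC, with at most 1 mismatch, within 100 bp of the summit. Over all 2607 promoter peaks the share was 65.9%. For each of the 12 genes the copy nearest the summit is printed 5′ to 3′ with 10 bases to either side, from the RefSeq sequence of GRCm38 (mm10), and capitals mark the 10 bases of the copy.
Ndufa13: ttgctggagaGCGCATGCGCatcctcgatt
Ndufa6: gctctgcaatGCGCATGCTCtaccgcggaa
Ndufa8: ctccagcgacGCGCAAGCGCactgctctag
Ndufs6: ccaagtgccgGCGCAGGCGCacagcagtcg
Ndufa11: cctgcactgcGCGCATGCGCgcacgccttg
Ndufb4: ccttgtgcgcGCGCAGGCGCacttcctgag
Ndufb6: agagggctttGCGCATGAGCagagcctgct
Ndufs5: gctgcttgctGCGCAGGCGCagacccgctg
Ndufb8: acccgcttttGCGCATGTGCagagtgaacc
Ndufa5: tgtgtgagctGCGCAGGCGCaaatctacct
Ndufaf4: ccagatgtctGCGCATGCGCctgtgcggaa
Ndufaf5: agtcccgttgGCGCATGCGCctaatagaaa

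The 30-base windows lie on the plus strand at chr8:69903321-69903350 for Ndufa13, chr15:82354357-82354386 for Ndufa6, chr2:36049349-36049378 for Ndufa8, chr13:73328479-73328508 for Ndufs6 and chr17:56717692-56717721 for Ndufa11. Those of Ndufaf4 and Ndufaf5, also on the plus strand, are chr4:24897960-24897989 and chr2:140170652-140170681. The minus strand is printed for Ndufb4 at chr16:37654428-37654457, Ndufb6 at chr4:40279479-40279508 and Ndufs5 at chr4:123718265-123718294. It is also printed for Ndufb8 at chr19:44555417-44555446 and for Ndufa5 at chr6:24527697-24527726. Each copy was read on the strand that puts its mismatch in positions 6 to 10, counted from 1 at the 5′ end of the palindrome.

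Only 4 of the 17 peaks, those of Ndufa11, Ndufa13, Ndufaf4 and Ndufaf5, held the palindrome without a mismatch, and over all promoter peaks 10.9% did. Within 100 bp of the 17 summits there were 18 copies. The most frequent form was T6G. It occurred in 6 copies at 5 genes, Ndufa13, Ndufa5, Ndufb4, Ndufs5 and Ndufs6, and at 23.4% of all promoter peaks. T6C was present in 1 copy each at Ndufa6 and Ndufb4, and at 16.6% of all promoter peaks. G9T was present in 1 copy each at Ndufa6 and Ndufaf4, and at 4.37% of all promoter peaks. The forms C10T and T6A, both at Ndufa8, C8A at Ndufb6 and C8T at Ndufb8 were seen once. Over all promoter peaks, 7.02% held C10T, 5.14% T6A and 2.53% C8T. The C8A form of Ndufb6 was the rarest of these forms, since 0.652% of promoter peaks held it.

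Copies lay close to the summits. The centre of the nearest copy was 7.50 bp from the summit in the median of the 12 peaks and 55.5 bp at most, and in 9 peaks it was within 20 bp. These distances were not measured over all promoter peaks and are given as a description. The longest distance belonged to Ndufaf4, whose summit fell between an exact copy at 55.5 bp and a G9T copy 58.5 bp away on its other side. In 5 peaks, those of Ndufa13, Ndufa6, Ndufa8, Ndufaf4 and Ndufb4, there were 2 or more copies, against 11.9% of all promoter peaks. At Ndufa8 the centres of the C10T and T6A copies were at −5.5 and −25.5 bp from the start. Ndufb4 held 3 copies, with centres at −186.5, −74.5 and −17.5 bp from its start.

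The remaining 5 peaks, those of Ndufa12, Ndufb10, Ndufv3, Ndufc1 and Ndufv1, had no copy with at most 1 mismatch. Copies with 2 mismatches were found at the first 3 of these genes, while Ndufc1 and Ndufv1 had none. How many of all promoter peaks hold such a copy was not counted, so these are a description of sequence only. These copies are shown because the peak of Ndufb10 was among the highest of the family, and because the copy nearest the summit had the same 10 bases at Ndufa12 and Ndufb10.
Ndufa12: ctccagctctGCGCCTGCGTagaacgacct
Ndufb10: ggtgacagctGCGCCTGCGTagtgggcagc
Ndufv3: cagaatgcgcGCGCAAACGCttgggtccac

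Their windows are chr10:94198905-94198934, chr17:24724431-24724460 and chr17:31520077-31520106, and the centres of the copies were 7.5, 0.5 and 2.5 bp from the summits. The median fold enrichment, the deposited ratio of signal to control background at the summit, was 12.8 over the 12 peaks with the motif and 11.5 over the 5 without it. Missing letters say only that this palindrome was not in the window.

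Fold enrichment ranged from 7.09 at Ndufc1 to 29.5 at Ndufa13 over the 17 peaks, with a median of 11.8. All 2607 promoter peaks had a median of 11.1 and quartiles of 7.90 and 16.4. Above that median lay 10 of the 17 peaks, 4 reached the upper quartile and 2 fell below the lower one, while promoter peaks in general ran from 3.01 to 49.9. The deposited −log10 q ran from 13.4 at Ndufaf5 to 108 at Ndufa13, and peak widths from 228 to 522 bp with a median of 333 bp.

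**Figure D1:**
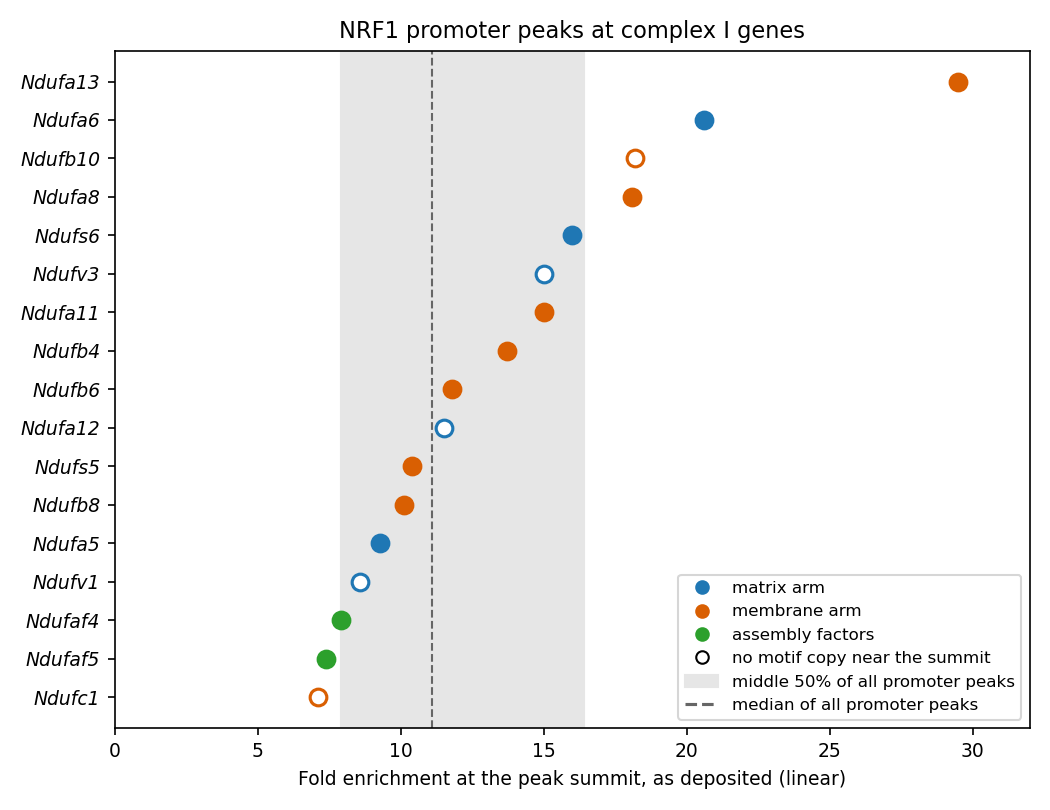
Fold enrichment of the NRF1 promoter peak (linear axis, as deposited) for each of the 17 Nduf genes that had one, coloured by place in complex I. Open circles are the 5 genes without a motif copy near the summit, and the grey band and dashed line are the quartiles (7.90 to 16.4) and the median (11.1) of all promoter peaks, with Ndufa13, Ndufa6, Ndufb10 and Ndufa8 above the band and Ndufaf5 and Ndufc1 below it.

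In the matrix arm, 6 of 16 genes had a promoter peak (37.5%, interval 18.5 to 61.4%). The highest was that of Ndufa6, an accessory subunit of the LYR family that binds the acyl carrier protein, with a fold enrichment of 20.6 (chr15:82354120-82354511, −log10 q 65.1) and a summit 52 bp before the start. It ranked 330 of the 3226 peaks. Ndufs6, a zinc-binding accessory subunit next to the NADH-oxidising part, reached 16.0 at chr13:73328311-73328640 with its summit at −25 bp. Ndufv3, an accessory subunit at the tip of that part, reached 15.0 at chr17:31519966-31520228, with the summit at −21 bp.

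The other 3 peaks of the matrix arm were lower. Ndufa12, an accessory subunit that takes the place of its paralogue Ndufaf2 late in assembly, had a fold enrichment of 11.5 at chr10:94198706-94199042 and a summit at −108 bp. Ndufaf2 itself had no peak, and its nearest summit was 1136182 bp away, the farthest of the family. Ndufa5, an accessory subunit of the arm's ubiquinone-reducing part, had 9.29 at chr6:24527650-24527883 with a summit at −38 bp. Ndufv1, the flavin-binding core subunit that oxidises NADH, had 8.56 at chr19:4012696-4012924 with a summit at −67 bp.

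Ndufv1 was the only one of the 7 nuclear core subunits with a promoter peak (14.3%, interval 2.57 to 51.3%), a share close to the 13.4% of all protein-coding genes. The iron-sulfur subunits Ndufv2, Ndufs1, Ndufs7 and Ndufs8, which carry electrons towards ubiquinone, and the subunit Ndufs3 were among those with none. Among the 31 genes counted as accessory subunits, 14 had a peak (45.2%, interval 29.2 to 62.2%). These 31 include Ndufb4c, a single-exon copy of Ndufb4 placed there by its symbol. The intervals of the 2 groups overlap and their difference was not tested, and the wider window described below adds Ndufs8 to the core genes with a peak. The accessory genes of the matrix arm without a promoter peak were Ndufs4, Ndufa2, Ndufa7 and Ndufa9.

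In the membrane arm, with Ndufb4c counted there by its symbol, 9 of 21 genes had a promoter peak (42.9%, interval 24.5 to 63.5%). The highest of the family was that of Ndufa13, also known as GRIM-19, a membrane-anchored subunit near the junction of the arms. It had a fold enrichment of 29.5 at chr8:69903104-69903554 and ranked 75 of all peaks. Its position differed from that of the other 16, as its summit was at −774 bp from the nearer of the 2 annotated starts of Ndufa13 and at −1312 bp from the other. The summit lay in an exon of Tssk6, outside its coding part, and in GENCODE M21 it was at −620 bp from a start of Yjefn3. Without a link from the peak to a transcript, it is assigned to Ndufa13 by distance alone.

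Subunits with paired cysteine motifs that sit on the intermembrane-space face of the membrane arm were Ndufa8, Ndufb10, Ndufs5 and Ndufb7, a set put together after the values were seen. The set is given as a description only. Ndufb10 had a fold enrichment of 18.2 at chr17:24724299-24724578 (−log10 q 70.2) and Ndufa8 one of 18.1 at chr2:36049187-36049529, each with its summit 23 bp before the start. At Ndufs5 the fold enrichment was 10.4 at chr4:123718111-123718443, with a summit at −86 bp, and the fourth gene, Ndufb7, had its summit after the start as described below.

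Of the membrane-arm subunits with membrane-spanning helices, Ndufa11 reached a fold enrichment of 15.0 at chr17:56717552-56717828 with a summit at −51 bp. Ndufb4 followed with 13.7 at chr16:37654175-37654696, where the summit lay at −103 bp. Ndufb6 reached 11.8 at chr4:40279356-40279813 with a summit at −65 bp. The peaks of 2 further small subunits were lower. Ndufb8 had 10.1 at chr19:44555242-44555649, with its summit 16 bp after the start, and Ndufc1 had 7.09 at chr3:51408919-51409146 with its summit at −69 bp. No promoter peak was called at Ndufa1, Ndufa3, Ndufa10, Ndufb1, Ndufb2, Ndufb3, Ndufb4c, Ndufb5, Ndufb7, Ndufb9, Ndufb11 or Ndufc2. Neither of the 2 X-linked genes, Ndufa1 and Ndufb11, had one.

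Of the 8 assembly factors, Ndufaf4 and Ndufaf5 had a promoter peak (25.0%, interval 7.15 to 59.1%). Ndufaf4, which acts in early assembly together with Ndufaf3, had a fold enrichment of 7.91 at chr4:24897860-24898204 and a summit at −53 bp. Ndufaf5, which modifies Ndufs7 during assembly, had 7.40 at chr2:140170549-140170865 and a summit 21 bp after the start. Both values were near the lower quartile of promoter peaks, although both peaks held an exact copy of the palindrome, and that of Ndufaf5 was centred 0.5 bp from the summit. Ndufaf1, Ndufaf2, Ndufaf3, Ndufaf6, Ndufaf7 and Ndufaf8 had no promoter peak. Ndufaf3, the partner of Ndufaf4, was 49959 bp from the nearest summit, which was also the median distance of the 31 genes without a promoter peak.

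Outside these classes, Ndufab1, the mitochondrial acyl carrier protein that occurs in both arms, had no promoter peak. Its nearest summit was 31150 bp upstream, in the promoters of Dctn5 and Palb2. Ndufa4, which is now counted with cytochrome c oxidase, and its paralogue Ndufa4l2 had none either.

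The window used to call a promoter peak limits where these summits can lie, so their positions are given as a description. The median position was −52 bp, 15 of the 17 summits lay before the start and 2 after it, and 16 were within 110 bp of a start, Ndufa13 being the exception. For all 2804 protein-coding genes with a promoter peak, the nearest summit had a median position of −56 bp, was before the start at 79.9% and was within 110 bp of a start at 70.5%. In 14 peaks the summit was outside known transcripts, and in those of Ndufa13, Ndufb8 and Ndufaf5 it was in an exon outside the coding part. By RefSeq starts, the Nduf gene was the only protein-coding gene with the summit in its promoter for 13 peaks, among them that of Ndufa13, whose summit is also near the GENCODE start of Yjefn3. The summit was shared by Ndufa11 with Vmac, by Ndufa5 with Asb15, by Ndufa8 with Morn5 and by Ndufaf5 with Esf1, so these 4 peaks cannot be assigned to 1 gene of the pair.

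**Figure D2:**
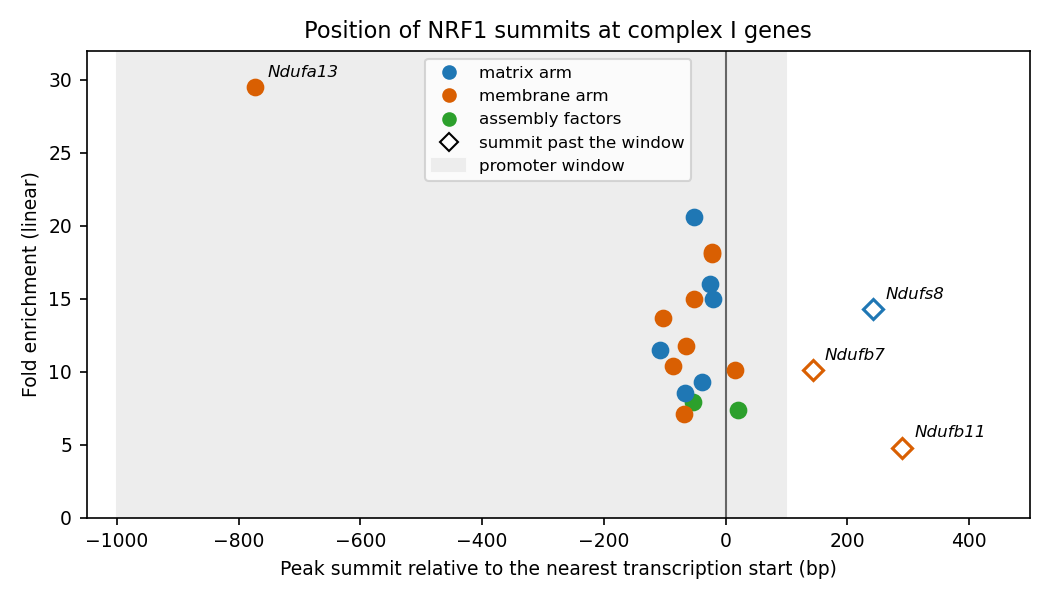
Summit position relative to the nearest annotated start (bp) against fold enrichment (linear axis) for the 20 Nduf genes with a summit within 1000 bp of a start, coloured by place in complex I. Filled circles are the 17 genes with a promoter peak, all but Ndufa13 within 110 bp of the start and with the points of Ndufb10 and Ndufa8 nearly coinciding at −23 bp, and open diamonds are the 3 genes whose summit lay past the grey window.

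Inside the window, the summits nearest its downstream edge of 100 bp after the start were those of Ndufaf5 at +21 bp and Ndufb8 at +16 bp, and the summit nearest its upstream edge was that of Ndufa13 at −774 bp. None of these was close to an edge. Past the downstream edge, 3 genes had a summit between 143 and 290 bp after the start. Over all protein-coding genes, 1.10% had no promoter peak but a summit past the window and within 500 bp downstream of a start. Ndufb7 had a summit at +143 bp in its coding sequence (chr8:83566620-83567010, fold enrichment 10.1). Ndufs8, a core subunit that carries iron-sulfur clusters, had one at +242 bp in an exon outside the coding part (chr19:3912383-3912864, fold enrichment 14.3, −log10 q 37.6). That value was higher than those of 10 genes counted with a promoter peak. At Ndufb11 the peak was weak, with a fold enrichment of 4.81 and a −log10 q of 3.1, and its summit at +290 bp lay in the promoter of Rbm10.

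Ndufs8 and Ndufb7 held motif copies at these summits, an exact one centred 4.5 bp from the summit and a T6G copy 45.5 bp away. They are printed in the same way as those above, both on the plus strand, at chr19:3912522-3912551 and chr8:83566932-83566961.
Ndufs8: cggcgaggcaGCGCATGCGCctgagggtgc
Ndufb7: tgagctcagtGCGCAGGCGCgaccgcagat

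With a window of 2000 bp before to 500 bp after a start, these 3 genes joined and the count was 20 of 48, against 14.7% of all genes. Ndufs8 also joined when GENCODE M21 starts were used, which gave 18 genes, with 47 of the 48 matched to GENCODE by symbol. Of the other 28 genes, 3 had a summit within 10000 bp. They were Ndufa7, with a summit at −6837 bp in a coding exon (fold enrichment 15.9), Ndufa4l2, with one at +7505 bp in the promoter of Shmt2 (21.8), and Ndufa2, with one at +9447 bp in the promoter of Tmco6 (6.79). For the remaining 25 genes the nearest summit was farther away.

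The letters around the starts were then compared between genes with and without a promoter peak. Within 100 bp of a start, 12 of the 48 genes held a motif copy with at most 1 mismatch, and 11 of these 12 had a promoter peak. Among all 1663 protein-coding genes with such a copy, 81.1% had one. The other 36 Nduf genes held none there, and 6 of them had a promoter peak (16.7%, interval 7.87 to 31.9%), against 7.52% of all protein-coding genes without a copy there. Of the 31 genes without a promoter peak, only Ndufb4c held a copy within 100 bp of the start, and 1.73% of all genes without a promoter peak did. In the whole promoter window, Ndufs7 held a T6A copy at −354.5 bp and Ndufb11 a T6C copy at −636.5 bp, neither with a summit in the promoter.

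Ndufb4c is a single-exon copy of Ndufb4, a gene with 3 exons. Its first 218 transcribed bases (chr15:73809716-73809933) were identical to a stretch that spans the start of Ndufb4 (chr16:37654179-37654396), and both windows are printed on the minus strand to show the motif they share.
Ndufb4: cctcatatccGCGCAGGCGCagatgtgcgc
Ndufb4c: tcagatatccGCGCAGGCGCagatgtgcgc

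In Ndufb4 this is the copy at −17.5 bp (chr16:37654371-37654400), and in Ndufb4c it lies at +10.5 bp (chr15:73809908-73809937). Upstream of the identical stretch the genes diverged, with 23.0% of the next 200 bases the same without gaps, and the copies of Ndufb4 at −74.5 and −186.5 bp have no counterpart near the start of Ndufb4c. The nearest summit to Ndufb4c was 386681 bp away. Only uniquely mapped reads were kept by the authors, so reads that fell wholly inside the identical stretch could be placed at neither gene. The part of this in the missing peak at Ndufb4c was not tested.

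NRF1 promoter peaks were common at starts rich in CpG, so base composition was set beside the counts, an addition made after seeing the data, as was the comparison by neighbouring gene. A start was called CpG-rich when the observed over expected CpG ratio within 200 bp was at least 0.6 and the GC content at least 50%. This held for 45 of the 48 genes (93.8%) and for 55.0% of all protein-coding genes. All 17 genes with a promoter peak were among the 45, which is 37.8% of them (interval 25.1 to 52.4%), and 23.1% of all genes with a CpG-rich start had a promoter peak. Ndufa4l2, with a ratio of 0.19, and Ndufb4c and Ndufs4, with a GC content of 47.6 and 49.1%, were the exceptions.

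Within the family, genes with and without a promoter peak had medians of base composition close to each other. The median CpG ratio was 0.81 (0.68 to 1.03) in the 17 genes with one and 0.79 (0.19 to 1.09) in the 31 without, and the median GC content was 61.6% in both. Over all protein-coding genes the median CpG ratios were 0.90 and 0.60. Ndufa10 had the highest ratio of the family, 1.09, and Ndufv2 the highest GC content, 72.6%, and neither had a promoter peak.

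**Figure D3:**
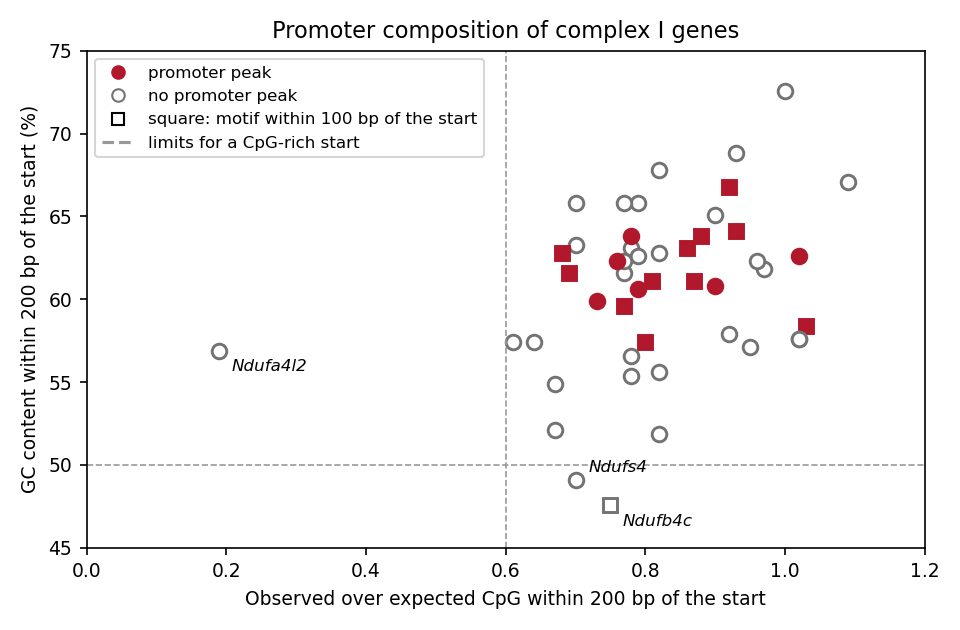
Observed over expected CpG ratio against GC content (%), both within 200 bp of the start, for the 48 Nduf genes, filled where a promoter peak was called and square where a motif copy lay within 100 bp of the start. Dashed lines are the limits of a CpG-rich start, outside which are Ndufa4l2, Ndufb4c and Ndufs4, and the filled points lie between CpG ratios of 0.68 and 1.03, a range that most open points share.

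Many Nduf genes share their upstream region with a neighbour. The start of a protein-coding gene transcribed in the opposite direction lay within 1000 bp upstream of 17 of the 48 (35.4%), compared with 8.80% of all protein-coding genes. Of these 17 genes, Ndufa5, Ndufa8, Ndufa11, Ndufa13 and Ndufaf5 had a promoter peak (29.4%), and 34.0% of all genes with such a neighbour did. The count is by gene, not by start. At Ndufa13 the neighbour, Tssk6, lies 164 bp upstream of the start from which the summit is at −1312 bp, outside the promoter window. Without a divergent neighbour the count was 12 of 31 (38.7%), against 11.4% of all such genes. Ndufs1, whose start is 9 bp from that of Eef1b2, Ndufa7, 10 bp from Rps28, and Ndufs3, 19 bp from Kbtbd4, were the closest pairs, and none had a promoter peak.

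Letters of 2 other factor families were counted within 100 bp of the starts on both strands, a choice made after seeing the data. The ETS letters CCGGAAG were present at none of the 17 genes with a promoter peak and at 8 of the 31 without, namely Ndufa1, Ndufaf1, Ndufaf8, Ndufb7, Ndufb9, Ndufs1, Ndufs3 and Ndufs8. Among all protein-coding genes 11.1% held them, with 19.3% of those with a promoter peak and 9.80% of those without. The YY1 letters GCCATCTT were present at 12 of the 48 genes (25.0%) and at 3.40% of all protein-coding genes. Of the 12, Ndufa6, Ndufb8, Ndufc1 and Ndufs6 had a promoter peak and the other 8 did not, and over all genes 6.06% of those with a promoter peak and 3.00% of those without held the letters. No ETS or YY1 match shared bases with a copy of the NRF1 palindrome. These matches are descriptions of sequence and say nothing of the factors themselves.

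Related gene families were counted in the same way. Subunits of complexes II, III and V had a promoter peak at 19 of 34 genes (55.9%, interval 39.5 to 71.1%), proteins of the mitochondrial ribosome at 26 of 78 (33.3%, interval 23.9 to 44.4%) and nuclear subunits of cytochrome c oxidase at 4 of 18 (22.2%, interval 9.0 to 45.2%). The interval of the Nduf genes overlaps all 3, and differences between families were not tested. The median fold enrichment of their peaks was 9.82, 10.7 and 21.0, compared with 11.8 for the Nduf genes.

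Of 14 other genes known to take part in building complex I, 4 had a promoter peak (28.6%, interval 11.7 to 54.6%). Chchd4, which imports the proteins with paired cysteine motifs into the intermembrane space, had a fold enrichment of 23.4 with a summit at −229 bp that also lay in the promoter of Tmem43. Aifm1, its binding partner in that import, had 23.0 with a summit at +9 bp. The membrane proteins Tmem186 (10.2, at −58 bp, shared with Pmm2) and Tmem70 (4.94, at +21 bp), both assembly factors, had lower values. Acad9, Ecsit, Tmem126a, Tmem126b, Timmdc1, Foxred1, Nubpl, Dmac1, Dmac2 and Lyrm2 had none. The peaks of Chchd4 and Aifm1 were higher than every Nduf promoter peak except that of Ndufa13.

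**Figure D4:**
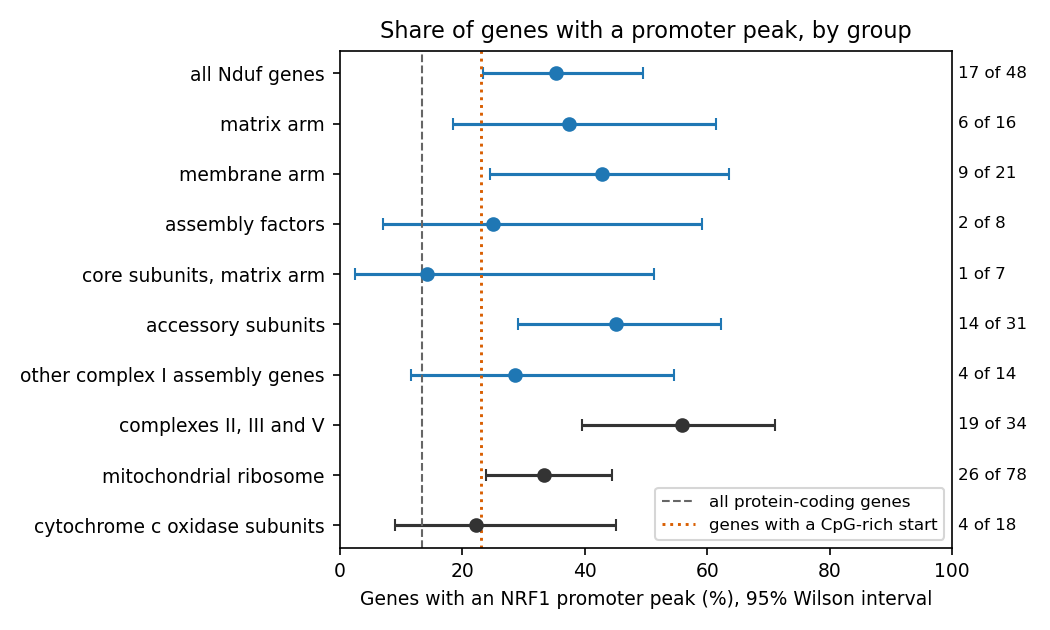
Share of genes with an NRF1 promoter peak (%) and its 95% Wilson interval for the Nduf genes, their groups, the other complex I genes (blue) and 3 related families (black), with counts at the right. The dashed and dotted lines are all protein-coding genes (13.4%) and genes with a CpG-rich start (23.1%). The interval of the 48 Nduf genes, 23.4 to 49.6%, begins close to the dotted line, and that of the core subunits spans both lines. The intervals cover counting error only, and no test against the lines was run.

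The core subunits of the membrane arm are encoded by mitochondrial DNA, which carried 3 peaks of low fold enrichment. The first (chrM:1-6451, fold enrichment 2.70) covered ND1 and ND2. The second (chrM:10987-15687, 2.70) covered ND5, ND6 and 558 of the 1378 bp of ND4, with its summit in ND5. The third (chrM:15927-16299, 2.46) covered no complex I gene, and ND3 and ND4L lay in none. By fold enrichment the 3 peaks ranked 3207, 3208 and 3210 of the 3226 peaks. Their −log10 q was 39.8, 39.6 and 29.4, within the range of the Nduf promoter peaks, 13.4 to 108. The 16299-bp chromosome held no copy of the palindrome with at most 1 mismatch.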

How the data were processed

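ChIP-seq of NRF1 was carried out by the authors on wild-type mouse skeletal muscle. They mapped reads to mm10 with Bowtie, kept uniquely mapped reads, removed blacklisted regions and called peaks with MACS2 against input DNA. Their methods name a human blacklist and the broad option, whereas the deposited list has narrow peaks. Depth, which sets how weak a site can be and still be called, is not given in the list. The deposited fold enrichment is a linear ratio, and each p-value or q-value was deposited as its −log10. RefSeq annotation and sequence of GRCm38.p6 and GENCODE M21 starts were used. Starts were those of known coding transcripts, and a gene had a promoter peak when a summit lay from 1000 bp before to 100 bp after any of them. Motif copies were sought on both strands, and the CpG ratio was that of the start with the highest value. Python 3.11.15 and SciPy 1.17.1 (Wilson intervals) were used. On simulated data, 0 of 2008 window calls were wrong and 334 of 334 planted copies were found. Nduf genes were named by rule, except 1 result that is not reported here, and sequences were printed for the 12 peaks with the motif, with others chosen after the values were seen. The genes, groups and lists were chosen with earlier results of these data known. No test was run, because the data are 1 peak list. Ndufb4b, with a predicted transcript only, 5 pseudogenes with the prefix and Coa1 were not analysed here.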

Additional observations from a re-analysis of the deposited data

How the results depend on the processing

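The number of Nduf genes with a promoter peak was 17 and ranged from 17 to 20 over the 7 alternatives tried. It was 20 with the window of 2000 bp before to 500 bp after a start (Ndufb7, Ndufs8 and Ndufb11 gained), 19 with 500 bp to either side (the same genes gained, Ndufa13 lost), 19 when any overlap of peak and window counted (Ndufb7 and Ndufs8 gained) and 18 with GENCODE M21 starts (Ndufs8 gained). It remained 17 at a q-value of at most 1e-05, at a fold enrichment of at least 5 and with predicted transcripts added. For the GENCODE starts, 47 of the 48 Nduf genes and 20498 of the 21000 protein-coding genes were matched by symbol. The share of all genes moved between 12.7 and 14.7%. With no mismatch allowed, 4 of the 17 peaks held the motif in place of 12, and 15 did with 2 mismatches. The share of all promoter peaks with the motif was not counted at 2 mismatches, so the count of 15 has no background. The median fold enrichment was 11.6 with the wider window. Genes without a promoter peak that held the motif numbered 3 in the whole promoter window and 0 with no mismatch, in place of 1. Within 500 bp of the start the median CpG ratio was 0.71 in genes with a promoter peak and 0.73 in those without, so its order turned, and the cause was not tested.

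No paired analysis was possible because 1 peak list was analysed, and leaving out a replicate was not possible for the same reason. Depth, which the list does not give, limits what the absence of a peak shows. The fold enrichments rest on 1 library and its control, and if the library labelled replicate 2 is that control, no repeat of any value exists here.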
